A study of Mus musculus with 130 samples.

Results

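Strains with the most and the least liver Alas1 mRNA were compared in a panel of male mice fed an iron-loaded diet. Alas1 (ENSMUSG00000032786, chromosome 9, 106233455 to 106248654 on the minus strand of GRCm38) encodes 5-aminolevulinate synthase 1, the rate-limiting enzyme of heme synthesis outside red cell precursors. The ranked strains were selected on the TPM of Alas1 (a level corrected for gene length and depth): the 20 highest were set against the 20 lowest, which left 73 strains between. The series holds 130 liver libraries. Since these 40 strains were chosen by Alas1, its own difference is a description without a test.

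All panel mice ate chow for 4 weeks and then a diet with 2% carbonyl iron (20000 ppm) for 6 weeks. The panel holds recombinant inbred families and other inbred strains, with 1 mouse per strain. A family descends from a pair of parents: C57BL/6J and DBA/2J for BXD, A/J and C57BL/6J for AXB and BXA, C57BL/6J and C3H/HeJ for BXH, and a BALB/c and a C57BL/6 substrain for CXB. With 1 mouse per strain, a difference between strains cannot be told apart from a difference between single mice. The labels used here give no age and no hour of tissue collection. The other 15 libraries came from C57BL/6J mice on 5 diets, 3 mice per diet: chow, 50 ppm iron, 500 ppm iron, 2% carbonyl iron, and 2% carbonyl iron with cellulose as the fibre. The library labelled BXD65/RwwJ and the second mouse of 129X1/SvJ were left out of the ranking. The summed TPM of 4 Y-linked genes was 1.08 in that BXD65/RwwJ library, against 32.7 to 116 in the ranked libraries, although all mice are labelled male.

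ALAS1 sits in mitochondria and joins glycine with succinyl-CoA, and the later enzymes of the pathway (among them ALAD, UROS, UROD, CPOX, PPOX and FECH) turn its product into heme. In the liver most of that heme goes to cytochromes P450, and heme represses Alas1 and speeds the breakdown of its protein, in part through the mitochondrial protease CLPXP. Alas1 is also induced by fasting through PGC-1alpha and FOXO1, by drugs through the nuclear receptors CAR and PXR, and it cycles over the day with the circadian clock. In that clock BMAL1 (gene Arntl) and CLOCK switch on Per, Cry, Nr1d1 and Dbp genes through E-box elements, PER and CRY then block BMAL1 and CLOCK, and NR1D1 represses Arntl.

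Clock genes differed between the strain groups, so upstream sequences of Alas1 and of some genes that differed are shown, from RefSeq on GRCm38.p6. Each gene shown besides Alas1 held an E-box or a D-box, and other genes that differed held neither. Each run is the 250 bases before the start of 1 RefSeq transcript of the gene, 5′ to 3′ on the gene's strand. That start can differ from the end of the gene's span in GENCODE M21. The runs of Alas1 and Per1 lie inside that span, and those of Ciart and Cry1 overlap it by a few bases. Capitals mark an E-box (CACGTG), a D-box (TTATGTAA, bound by DBP, TEF, HLF and NFIL3) or AGGTCA, the core of many nuclear receptor sites. For Alas1 a further 30 bases from after the start are shown, with capitals on the core of the element bound by NRF1.
Alas1, chr9:106247955-106248204, minus strand: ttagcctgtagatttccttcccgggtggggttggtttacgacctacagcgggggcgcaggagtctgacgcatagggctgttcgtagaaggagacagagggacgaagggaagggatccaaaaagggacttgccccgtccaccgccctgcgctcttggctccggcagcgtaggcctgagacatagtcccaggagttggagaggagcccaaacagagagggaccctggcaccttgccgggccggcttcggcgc
Alas1, transcribed stretch, chr9:106247906-106247935, minus strand: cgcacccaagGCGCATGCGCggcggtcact
Coq10b, chr1:55052520-55052769, plus strand: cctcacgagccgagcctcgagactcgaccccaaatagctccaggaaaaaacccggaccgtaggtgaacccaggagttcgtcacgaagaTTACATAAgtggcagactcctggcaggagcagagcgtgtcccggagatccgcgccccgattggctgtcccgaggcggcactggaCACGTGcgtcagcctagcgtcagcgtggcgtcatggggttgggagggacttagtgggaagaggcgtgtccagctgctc
Ciart, chr3:95882229-95882478, minus strand: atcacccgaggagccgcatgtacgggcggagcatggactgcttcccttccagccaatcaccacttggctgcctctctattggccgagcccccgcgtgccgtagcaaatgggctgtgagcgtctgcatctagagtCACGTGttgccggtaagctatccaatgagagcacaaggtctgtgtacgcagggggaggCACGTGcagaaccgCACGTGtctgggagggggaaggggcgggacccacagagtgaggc
Per3, chr4:151044666-151044915, minus strand: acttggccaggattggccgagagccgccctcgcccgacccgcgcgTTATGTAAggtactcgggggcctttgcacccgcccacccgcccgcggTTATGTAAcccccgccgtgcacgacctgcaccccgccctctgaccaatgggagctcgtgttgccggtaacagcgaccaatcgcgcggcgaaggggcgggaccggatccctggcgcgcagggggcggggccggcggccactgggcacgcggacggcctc
Cry1, chr10:85185055-85185304, minus strand: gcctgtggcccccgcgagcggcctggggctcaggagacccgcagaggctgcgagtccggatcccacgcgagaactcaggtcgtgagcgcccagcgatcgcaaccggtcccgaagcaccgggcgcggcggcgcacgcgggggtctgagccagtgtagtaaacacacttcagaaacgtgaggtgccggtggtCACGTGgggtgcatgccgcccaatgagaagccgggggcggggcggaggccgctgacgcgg
Per1, chr11:69098699-69098948, plus strand: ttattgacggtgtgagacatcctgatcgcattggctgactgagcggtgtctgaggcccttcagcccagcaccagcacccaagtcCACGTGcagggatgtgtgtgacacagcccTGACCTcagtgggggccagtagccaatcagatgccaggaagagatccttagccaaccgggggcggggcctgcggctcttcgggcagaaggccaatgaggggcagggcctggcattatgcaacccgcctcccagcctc
The Alas1 window held none of the E-box, D-box or AGGTCA letters on either strand, and its NRF1 element began at base 30 of the transcript. Coq10b, whose product binds coenzyme Q in mitochondria, held an E-box 78 bases and a D-box on the reverse strand 162 bases before its start. Ciart, a repressor of the clock, held 3 E-boxes, Cry1 and Per1 held 1 each, and Per3 held 2 D-boxes. Over the 300 bases from 250 before to 50 after the start, 7.15% of 32851 RefSeq promoters held the E-box, 0.938% the D-box, 16.3% AGGTCA and 0.971% the NRF1 element, each searched on both strands. Of the 19 clock genes listed below, 16 had a promoter in that table, and 5 of them held an E-box and 1 a D-box. Usp2, Nr1d1, Arntl, Clock, Nampt, Por and Clpx, which differed between the groups, held neither, nor did a second start of Per1. Alad and Urod, which were not called, held an E-box. These are letters in a window and not measured binding.

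Alas1 ranged from 48.4 TPM in BXD13/TyJ to 1343 TPM in BALB/cByJ, a 27.7-fold span. The 20 high strains had a lowest value of 589, a median of 708 and a highest of 1343 TPM (mean 755.8 ± 187 SD). The 20 low strains had 48.4, 135 and 195.7 TPM (mean 133 ± 50.9 SD), and the 73 between lay from 204 to 570 TPM. The values fell without a gap at either border. The last strain inside the high group, AXB13/PgnJ, had 589 TPM and the next, BXD21/TyJ, had 570 TPM. The last strain inside the low group, BXD69/RwwJ, had 195.7 TPM and the next, BXD48/RwwJ, had 204 TPM. In the only strain with a repeat, 129X1/SvJ, the ranked mouse had 81.5 TPM and the second mouse 126 TPM, both within the range of the low group. Since the samples are pieces of whole liver, fewer cells of a type and less RNA per cell cannot be told apart here.

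**Figure D1:**
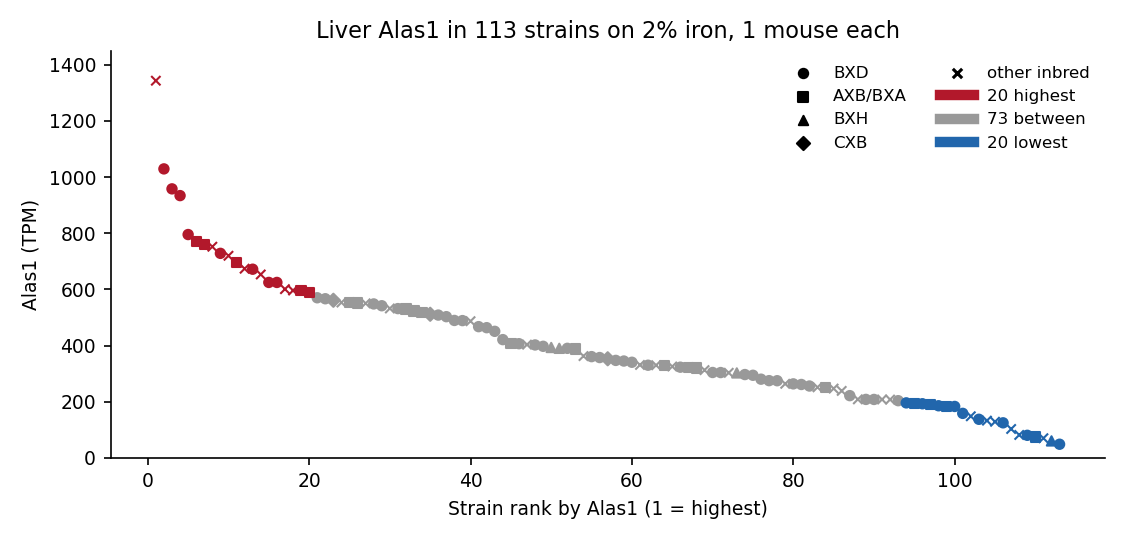
Alas1 in TPM for each ranked strain (1 mouse each), ordered from the highest to the lowest; colour gives the group and the symbol the strain family. BALB/cByJ stands highest at 1343 TPM, and the values pass from one group to the next without a gap.

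Each group mixed families. The high group held 8 BXD strains (BXD32/TyJ, BXD34/TyJ, BXD55/RwwJ, BXD12/TyJ, BXD6/TyJ, BXD56/RwwJ, BXD85/RwwJ and BXD28/TyJ), 5 AXB/BXA strains (AXB19a/PgnJ, BXA4/PgnJ, AXB15/PgnJ, AXB8/PgnJ and AXB13/PgnJ) and 7 other inbred strains (BALB/cByJ, C3H/HeJ, CBA/J, FVB/NJ, NZW/LacJ, SEA/GnJ and NOR/LtJ). The low group held 9 BXD strains (BXD69/RwwJ, BXD24/TyJ-Cep290<rd16>/J, BXD19/TyJ, BXD5/TyJ, BXD29/Ty, BXD1/TyJ, BXD15/TyJ, BXD66/RwwJ and BXD13/TyJ), 4 AXB/BXA strains (AXB12/PgnJ, AXB5/PgnJ, BXA1/PgnJ and BXA13/PgnJ), 1 BXH strain (BXH14/TyJ) and 6 other inbred strains (MRL/MpJ, KK/HlJ, SWR/J, LG/J, 129X1/SvJ and C57L/J). BXD24/TyJ-Cep290<rd16>/J carries a mutant Cep290 allele. The families overlapped in Alas1: medians over all ranked strains were 347 TPM in 55 BXD, 462 in 20 AXB/BXA, 346 in 4 BXH, 511 in 3 CXB and 325 in 31 other inbred strains. Library totals were 10.4 to 14.5 M counts in the high and 9.86 to 20.6 M counts in the low group (two-sided permutation test of the means, p = 0.470). The mitochondrial share of counts did not pass the test either (p = 0.820), with medians of 7.06% in the high and 7.05% in the low strains.

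With Alas1 itself left out, 1798 of 13142 genes differed between the groups at an adjusted p under 0.05 (13.7%), 879 higher (6.69%) and 919 lower (6.99%) in the high strains. Of these, 143 differed by more than 2-fold, 82 upward and 61 downward. With 2 principal components of 18 clock genes as terms in the model, edgeR called 0 of 13124 genes, with 1299 at an unadjusted p under 0.05 and a smallest adjusted p of 0.0719. These components hold 53.7% and 20.8% of the variance of those genes over the ranked strains, and the first had a median of -2.09 in the high and 2.49 in the low strains, with overlap between -1.07 and 0.919. The second had medians of 0.842 and -2.52, with overlap between -1.51 and 0.292. Both terms thus differ between the groups, and standard errors were wider with them. That of Coq10b went from 0.16 to 0.24 with its log2 difference at 1.23, and that of Foxo1 from 0.10 to 0.15 with its difference at 0.15. How much of the loss of calls came from wider standard errors was not tested. Whether the hour of collection differed between the groups was not tested. Every difference below is from the model without clock terms unless stated.

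Clock genes differed in both directions between the groups. On a list of 14 genes that peak with or around Dbp, 11 were higher and 1 lower in the high strains (85.7% called, beside 13.7% over all genes tested). The median log2 difference was 0.68 against -0.00 over all genes tested. Of 5 genes that peak with Arntl, 4 passed the filter on low counts, 2 were lower and 1 higher (75% called), and the median was -0.60. Not all of a list moved together, since Nr1d1 fell while Per genes rose, and Cry1 rose while Arntl fell.

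Arntl, the BMAL1 gene, was near the detection limit in the high strains, with a lowest value of 0.0763, a median of 0.403 and a highest of 2.27 TPM. In the low strains it was 0.700, 3.50 and 15.4 TPM. Of the high strains 17 of 20 lay below every low strain, while 8 of the 20 low strains lay inside the range of the high group, which AXB19a/PgnJ, FVB/NJ and BXD32/TyJ alone carried above 1 TPM. The log2 difference was -2.84 (SE 0.38, adjusted p = 1.22e-06). Clock, the partner of BMAL1, had medians of 4.03 and 6.83 TPM and fell by 0.72 on the log2 scale (SE 0.11, adjusted p = 3.95e-06).

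Per2, which encodes a repressor of BMAL1 and CLOCK, was tightly grouped in the high strains at 8.60 to 13.1 TPM (median 11.05). In the low strains it ran from 1.29 to 8.76 TPM (median 3.75), and MRL/MpJ with 8.76 TPM was the single low strain inside the range of the high group. The log2 difference was 1.47 (SE 0.19, adjusted p = 8.11e-07). Usp2, a clock-controlled deubiquitinase, showed the same separation, with 15.6 to 41.3 TPM in the high and 0.288 to 18.2 TPM in the low strains. Only BXD1/TyJ, at 18.2 TPM, reached the high group (log2 difference 2.48, SE 0.33, adjusted p = 9.74e-07).

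The other repressors rose too. The log2 difference was 1.402 for Per1 (SE 0.24, adjusted p = 6.22e-05), 1.31 for Per3 (adjusted p = 0.00263), 0.83 for Cry1 (adjusted p = 3.53e-04), 0.55 for Cry2 (adjusted p = 0.00159) and 1.96 for Ciart (adjusted p = 1.72e-04). Wee1, a cell cycle kinase under clock control, had 5.85 to 17.3 TPM in the high and 0.694 to 7.39 TPM in the low strains (log2 difference 1.51, SE 0.21, adjusted p = 1.95e-06). Nr1d1, the repressor of Arntl, went the other way, with a median of 16.1 TPM in the high and 50.0 TPM in the low strains (log2 difference -1.48, SE 0.21, adjusted p = 2.12e-06). Its relative Nr1d2 was higher (0.43, adjusted p = 0.0122), as were the D-box activators Tef (0.81, adjusted p = 0.00291) and Hlf (0.45, adjusted p = 0.0144). Dbp, the third activator of that family, had medians of 74.1 and 47.5 TPM and did not pass the test (log2 difference 0.52, SE 0.37, adjusted p = 0.408). It spanned 0.540 to 120 TPM among the low strains alone, with AXB5/PgnJ and BXA13/PgnJ under 1 TPM. Nfil3 and Bhlhe41 did not pass either, at -0.47 and -0.21, while the call of Bhlhe40 (0.53, adjusted p = 0.0472) was lost without any of 21 of the 40 strains, with adjusted p up to 0.129 without NOR/LtJ. Genes of these lists beyond Arntl, Clock, Cry1, Per2, Usp2, Wee1 and Nr1d1 were named after their values were seen.

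**Figure D2:**
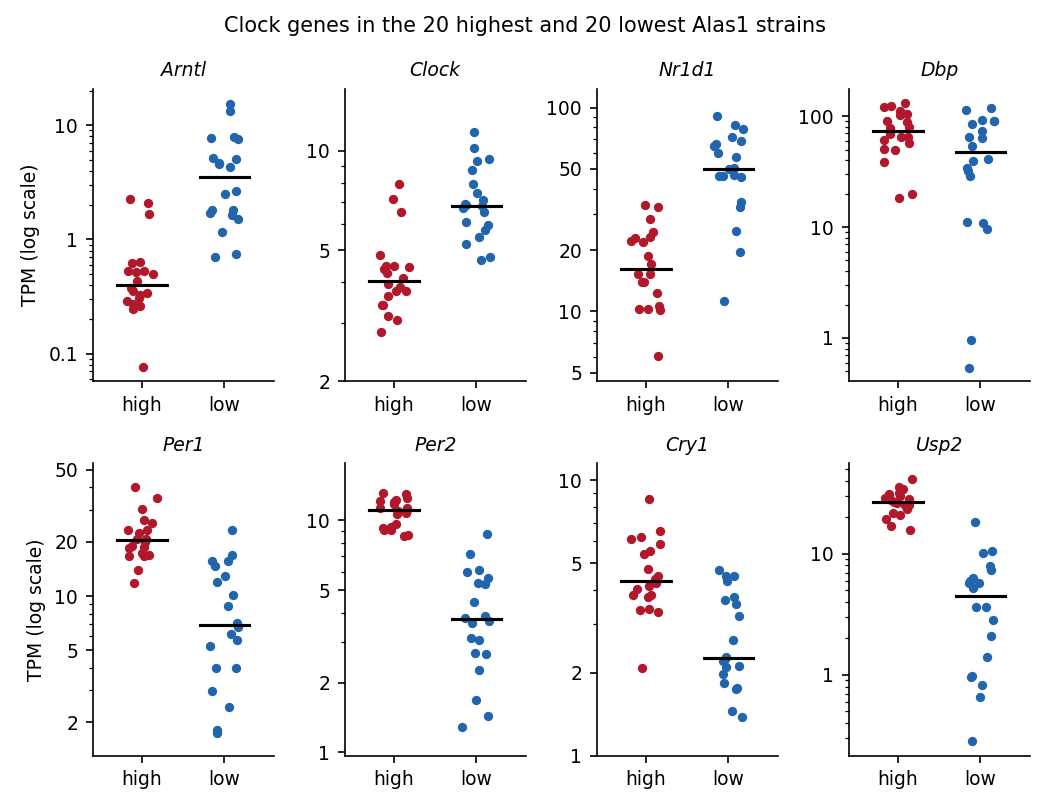
TPM on a log axis of 8 clock genes in the 20 high and 20 low Alas1 strains; each point is 1 strain and each line a group median. Arntl, Clock and Nr1d1 lie lower and Per1, Per2, Cry1 and Usp2 higher in the high strains, and Dbp spans a wide range in the low strains.

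Of 6 genes for enzymes after ALAS1 in the pathway 0 were higher and 1 was lower in edgeR, which is 16.7% beside 13.7% over all genes tested. Their median log2 difference was 0.02. Ppox, protoporphyrinogen oxidase, was the one that passed, with 4.57 to 11.4 TPM (median 8.25) in the high and 5.94 to 14.8 TPM (median 10.4) in the low strains. The groups overlapped over most of their range, and it fell by 0.31 on the log2 scale (SE 0.09, adjusted p = 0.0167). It did not pass in the BXD members alone (-0.28, adjusted p = 0.329) or in the others alone (-0.33, adjusted p = 0.110), where fewer strains were tested. On all 40 strains it was not called with limma on log2(TPM + 1) either (-0.25, adjusted p = 0.165).

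The remaining 5 did not pass the threshold. Alad, which makes porphobilinogen, had medians of 99.8 and 127 TPM (log2 difference 0.01, SE 0.21, adjusted p = 0.983), and it spanned 49.8 to 212 TPM in the high and 55.8 to 186.2 TPM in the low strains. Fech, which inserts iron into protoporphyrin, had the narrowest spread, 54.1 to 76.0 TPM in the high and 48.4 to 74.95 TPM in the low strains (0.05, SE 0.05, adjusted p = 0.594). Uros (-0.14, SE 0.11), Urod (0.08, SE 0.05) and Cpox (0.03, SE 0.09) also missed the threshold, with adjusted p from 0.391 to 0.892. Alas1 itself was 3.01-fold higher in the lowest high strain than in the highest low strain.

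Of 21 genes of heme handling 2 were higher and 2 lower, a share of 19% beside 13.7% over all genes tested. Clpx, the ATPase of the protease that degrades ALAS1 protein when heme is plentiful, was lower in the high strains, with 19.5 to 59.1 TPM (median 34.2) against 39.9 to 173.2 TPM (median 66.9). BXA13/PgnJ and C57L/J had the highest and second highest Clpx of the low group, at 173.2 and 142.5 TPM, while BXD13/TyJ and BXH14/TyJ, the lowest of all for Alas1, had 46.1 and 51.4 TPM. The log2 difference was -1.27 (SE 0.16, adjusted p = 4.89e-07), and it was called in the BXD members (-1.21, adjusted p = 0.00929) and in the others (-1.33, adjusted p = 4.61e-04). Bach1, a heme-sensing transcriptional repressor, was higher (0.44, SE 0.08, adjusted p = 1.88e-04), as was Slc25a39, a mitochondrial glutathione carrier (0.20, adjusted p = 0.0119). Pgrmc2, a heme chaperone, was lower (-0.25, adjusted p = 0.0179). Hmox1, heme oxygenase, had medians of 36.6 and 33.6 TPM and did not pass (-0.05, adjusted p = 0.936).

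**Figure D3:**
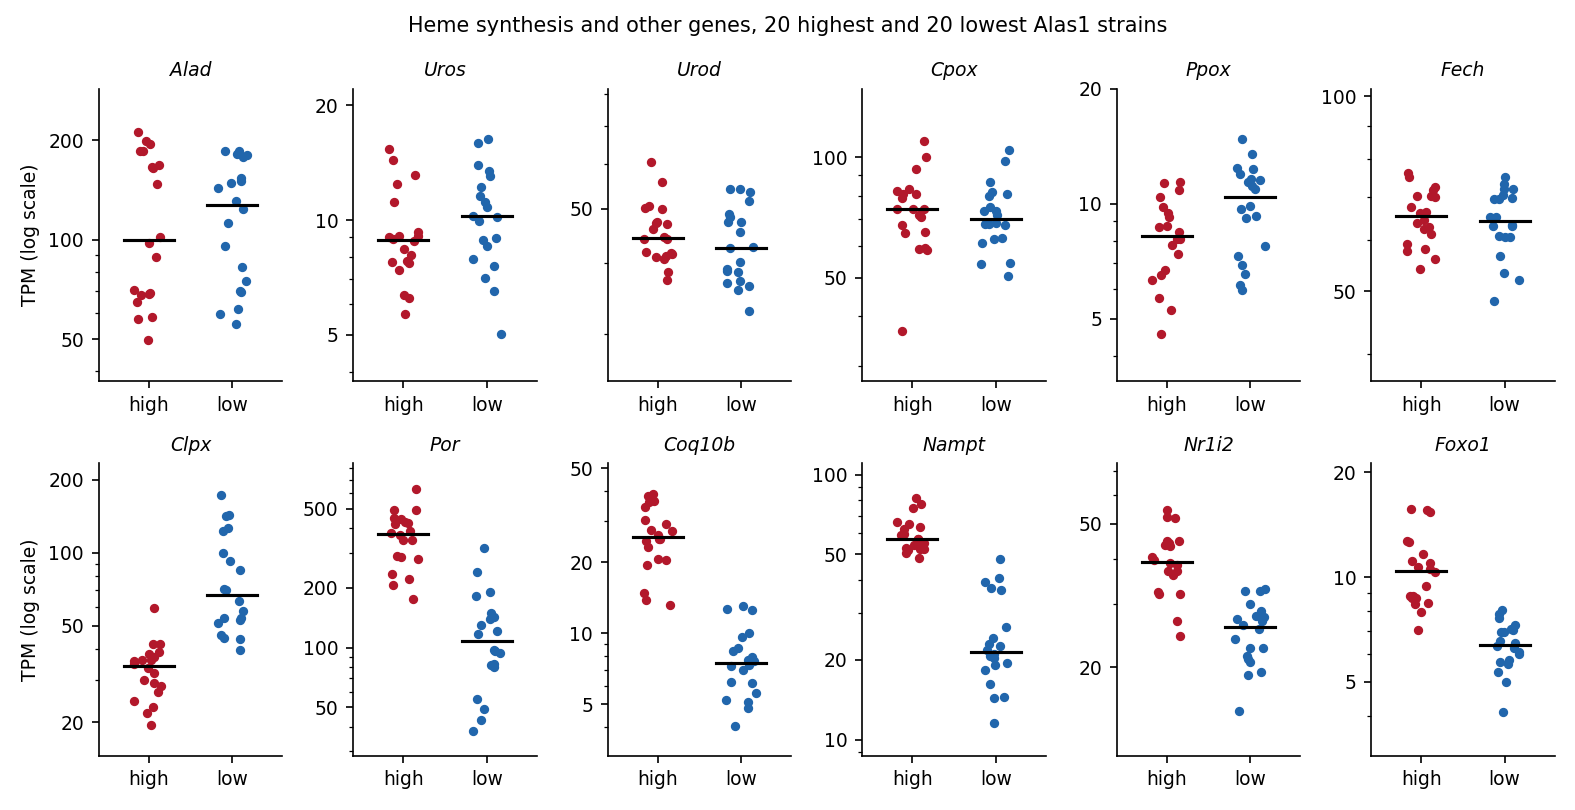
TPM on a log axis of 6 other heme synthesis genes and of Clpx, Por, Coq10b, Nampt, Nr1i2 and Foxo1 in the 20 high and 20 low Alas1 strains; points are strains and lines are group medians. The heme synthesis genes overlap almost fully, Clpx lies lower in the high strains, and Coq10b and Nampt do not overlap.

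The known regulators of Alas1 were higher more often than lower: of 16 genes 7 were higher and 1 was lower (50% called, beside 13.7% over all genes tested). Their median log2 difference was 0.16. Foxo1, a transcription factor active in fasting, had 7.07 to 15.7 TPM in the high and 4.09 to 8.05 TPM in the low strains (log2 difference 0.75, SE 0.10, adjusted p = 7.21e-07). Nr1i2, which encodes PXR, had medians of 39.2 and 25.9 TPM (0.69, SE 0.10, adjusted p = 3.31e-06), and Nr1i3, which encodes CAR, had 130 and 72.7 TPM (0.68, SE 0.23, adjusted p = 0.0457). Cebpb was higher by 0.87 (adjusted p = 6.34e-06) and Ppargc1a, the PGC-1alpha gene, by 0.61 (adjusted p = 0.00315). Ppara (0.39, adjusted p = 0.0117) and Esrra (0.26, adjusted p = 0.0158) were higher as well. Egr1, an immediate early gene, was lower (-1.18, adjusted p = 0.0166). Nrf1, the factor that binds the element shown after the Alas1 start, had medians of 4.63 and 5.39 TPM and a difference of -0.00 (adjusted p = 0.992).

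Among CAR and PXR targets 4 of 28 were higher and 0 lower in edgeR (14.3% called, beside 13.7% over all genes tested), with 22 of 28 above 0 and a median of 0.38. Por, which passes electrons to the cytochromes P450, was the clearest, at 176 to 626 TPM (median 371.8) in the high and 38.1 to 316.5 TPM (median 107) in the low strains. Most high strains lay above most low strains, and LG/J was the low strain that reached 316.5 TPM. The log2 difference was 1.62 (SE 0.22, adjusted p = 1.62e-06). With the clock components as terms it was -0.0052 (SE 0.23, adjusted p = 0.998). Cyp2a5 was higher by 1.55 (SE 0.38, adjusted p = 0.00371), the uptake carrier Slco1a4 by 1.11 (adjusted p = 0.00240) and the stress gene Gadd45b by 1.47 (adjusted p = 0.0110). Gadd45b ran from 0.573 to 41.4 TPM (median 3.87) in the high and from 0.578 to 7.84 TPM (median 2.02) in the low strains. Without NOR/LtJ its difference was 1.01 (adjusted p = 0.0498), and in the BXD members alone it was 0.47 (adjusted p = 0.742). Cyp2b10 (0.77) and Cyp3a11 (-0.03), the targets most used to read CAR and PXR activity, did not pass. Cyp2a5 has near-identical relatives, so part of its reads may have been shared with them.

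Of 27 other hemoproteins tested 1 was higher and 1 lower (7.41% called, beside 13.7% over all genes tested), with a median of -0.13. Cyp8b1, the sterol 12-alpha-hydroxylase of bile acid synthesis, had medians of 62.2 TPM in the high and 141.1 TPM in the low strains (-1.03, SE 0.22, adjusted p = 0.00110). Cyb5a was higher by 0.25 (adjusted p = 0.0417), and that call was lost without any of 21 of the 40 strains, with adjusted p up to 0.0759.

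Genes of fasting and gluconeogenesis were higher in the high strains in 8 of 19 cases and lower in 1, with a median of 0.48. This is 47.4% called, beside 13.7% over all genes tested. Pck1, which commits carbon to glucose, ran from 623 to 1288 TPM (median 1060) in the high and from 210 to 899 TPM (median 417.2) in the low strains (1.11, SE 0.17, adjusted p = 1.13e-05). Tat, which degrades tyrosine, had medians of 539 and 277 TPM (1.06, SE 0.18, adjusted p = 4.38e-05). The regulator Klf15 (0.55, adjusted p = 0.00119), the mitochondrial fatty acid importer Cpt1a (0.48, adjusted p = 0.00151), Lpin1 (1.13, adjusted p = 0.00411), Angptl4 (0.65), Asl (0.58) and Sds (0.55) rose as well. Insig2, which holds back sterol synthesis, fell by 0.72 (adjusted p = 0.00792). G6pc (0.10), a gluconeogenic gene too, did not pass.

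On the lipogenic list 1 of 15 genes was higher and 1 lower (13.3% called, beside 13.7% over all genes tested), 2 of 15 differences lay above 0 and the median was -0.20. Thrsp, which promotes lipogenesis, rose by 1.14 (SE 0.31, adjusted p = 0.00956), and Mlxipl, the sugar sensor ChREBP, fell by 0.32 (adjusted p = 0.0364), a call lost without any of 14 strains. Of 21 PPARA targets 5 were higher and 0 lower in edgeR (23.8% called), with a median of 0.29. Among them Acot2 was higher by 1.26 (adjusted p = 7.92e-04), Cidec, a lipid droplet protein, by 1.351 (adjusted p = 9.23e-04) and Slc25a20, the carnitine carrier, by 0.32 (adjusted p = 0.0209).

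**Figure D4:**
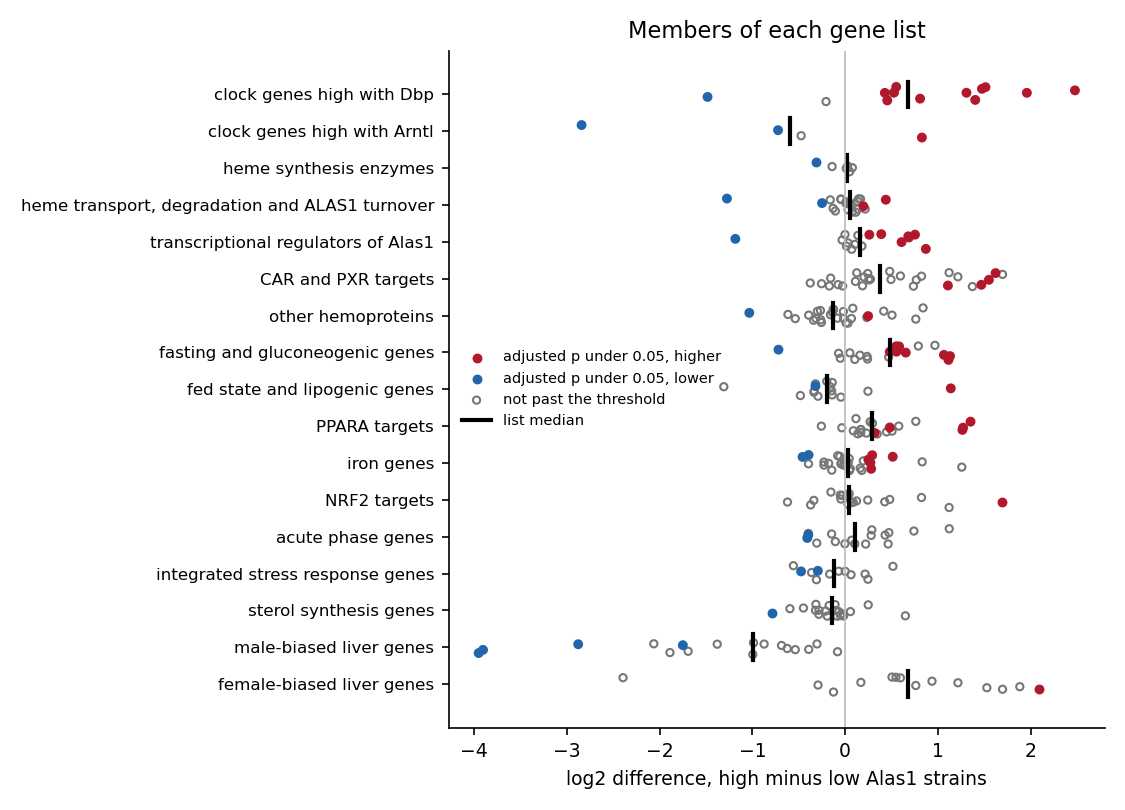
Log2 difference between the high and low Alas1 strains for each tested member of 17 gene lists; filled points passed an adjusted p under 0.05, open points did not, and bars mark the list medians. The heme synthesis list stays at 0.02 and the list that peaks with Dbp at 0.68.

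Iron genes were called in both directions, 5 higher and 2 lower of 29 (24.1%, beside 13.7% over all genes tested), with a median of 0.03. Hamp, the iron hormone hepcidin, had medians of 4377 and 4431 TPM and a difference of -0.00 (SE 0.08, adjusted p = 0.999). The zinc and iron carrier Slc39a8 fell by 0.46 (SE 0.08, adjusted p = 5.85e-05) and Atoh8 by 0.39 (adjusted p = 0.0110). Aco1, iron regulatory protein 1, rose by 0.27 (adjusted p = 1.02e-04), Slc25a37, the mitochondrial iron importer mitoferrin 1, by 0.51 (adjusted p = 1.47e-04), and Fth1, ferritin heavy chain, by 0.25 (adjusted p = 0.0379).

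Genes that differ between the sexes in mouse liver were compared in these male mice. Of 17 male-biased genes 0 were higher and 4 lower in edgeR (23.5% called, beside 13.7% over all genes tested). All 17 differences lay below 0, and the median was -0.996. Elovl3, a fatty acid elongase, had medians of 1.754 TPM in the high and 8.95 TPM in the low strains (-2.88, SE 0.62, adjusted p = 0.00114). Mup17 (-3.95, adjusted p = 0.00184) and Mup11 (-3.90, adjusted p = 0.00284) are major urinary protein genes with near-identical copies, so their values are uncertain, and Mup11 was listed at 0 in some strains of both groups. Without BXD19/TyJ the difference of Mup11 was -2.56 (adjusted p = 0.0252). Serpina1e (-1.75, adjusted p = 0.0158), also 1 of several close copies, was not called without BXH14/TyJ (-1.14, adjusted p = 0.0868). Of 14 female-biased genes 1 was higher and 0 lower in edgeR (7.14% called), with a median of 0.68. The called gene was Acot3, with medians of 61.5 and 12.6 TPM (2.09, SE 0.44, adjusted p = 8.10e-04).

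On the remaining lists the called share was 5% to 16.7%, beside 13.7% over all genes tested. Of 17 acute phase genes 0 were higher and 2 lower, the fibrinogen chains Fgg (-0.40, adjusted p = 0.0129) and Fga (-0.41, adjusted p = 0.0136). Of 19 NRF2 targets 1 was higher, the transporter Abcc4 (1.69, SE 0.27, adjusted p = 1.60e-05), and of 12 integrated stress response genes 2 were lower, Atf4 (-0.29, adjusted p = 7.34e-04) and Atf5 (-0.48, adjusted p = 0.00864). Of 20 sterol synthesis genes 1 was lower, Sc5d (-0.79, adjusted p = 0.0345), a call lost without any of 6 strains.

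Over all genes, Coq10b gave the smallest p. It ran from 13.2 to 38.98 TPM (median 25.6) in the high and from 4.04 to 13.1 TPM (median 7.47) in the low strains, so that its groups did not overlap (log2 difference 1.79, SE 0.16, adjusted p = 3.96e-10). Nampt, which makes NAD from nicotinamide, was the other gene without overlap, at 48.6 to 81.8 TPM against 11.6 to 48.2 TPM (1.27, SE 0.12, adjusted p = 1.01e-09). These 2 are 0.0152% of the genes tested. Nhlrc2 (0.70), Rhobtb1 (0.95) and Stk35 (0.81) came next among the rises, with adjusted p from 9.62e-10 to 1.01e-09. Among the falls the smallest p belonged to Tjp3, a tight junction protein, with medians of 4.63 and 10.7 TPM (-1.34, adjusted p = 1.01e-09). Ethe1, a mitochondrial sulfur dioxygenase, followed with medians of 9.76 and 21.97 TPM (-1.13, adjusted p = 1.84e-08), then the vasopressin receptor Avpr1a (-0.95), Ndrg1 (-1.602) and Ubxn1 (-0.48).

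The largest fold changes rested in part on single strains. Of genes that averaged 1 CPM or more over the 40 libraries, the rises were led by Dnah17, Usp2, Hao2, Ppp1r3g, Fam107a, Acot3 and Tsku. Dnah17 (3.01, adjusted p = 0.00284) was -0.09 without BALB/cByJ (adjusted p = 0.825), Fam107a fell from 2.16 to 1.12 without FVB/NJ (adjusted p = 0.0269), and Hao2 (2.41) was not called without FVB/NJ (adjusted p = 0.0612). Ppp1r3g, a glycogen targeting subunit, was higher by 2.22 (SE 0.52, adjusted p = 0.00263), and Tsku, a secreted liver protein, by 2.04 (SE 0.39, adjusted p = 2.21e-04), with medians of 24.02 and 8.74 TPM. The falls were led by Mup17, Mup11, Mup19, Elovl3, Arntl, Mup14, Ccn4 and Loxl4. Mup19 (-3.49) and Mup14 (-2.67) lost their calls without BXD19/TyJ (adjusted p = 0.231 and 0.0535), while Ccn4 was at -2.03 (SE 0.29, adjusted p = 2.76e-06), and Loxl4 was at -1.93 (adjusted p = 3.05e-05).

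Genes near Alas1 were not called more often than genes elsewhere. Within 5 Mb of it on chromosome 9, 126 genes were tested and 17 called (13.5%, against 13.7% over all genes), 6 higher and 11 lower. The smallest p belonged to Amt, of the glycine cleavage system (-0.65, SE 0.09, adjusted p = 2.75e-06), Tcta (-0.44, adjusted p = 3.87e-04) and Tmie (-0.89, adjusted p = 8.59e-04).

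The BXD strains and the others were also fitted apart. In the BXD members alone 101 genes were called higher and 101 lower, and in the others 580 higher and 487 lower. No gene was called for a different effect between BXD and other strains (0 of 13142 in edgeR, with 702 at an unadjusted p under 0.05 and a smallest adjusted p of 0.0583). Of the 95 named genes 55 lost their call without a change of sign in the BXD members and 18 in the others. Among those lost in the BXD members were Per1 (1.14, adjusted p = 0.0567), Cry1 (0.49, adjusted p = 0.297), Pck1 (0.88, adjusted p = 0.116) and Cebpb (0.84, adjusted p = 0.106). Alad, Fech and Dnah17 changed sign there, and Dnah17 lost its call too (-0.07, adjusted p = 0.948). Coq10b was at 1.59 in the BXD members (adjusted p = 0.00142) and 1.94 in the others (adjusted p = 2.88e-05), Arntl at -2.76 (adjusted p = 0.00929) and -2.91 (adjusted p = 0.00121), and Por at 1.16 (adjusted p = 0.0461) and 1.97 (adjusted p = 3.83e-04).

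The ranges of summed marker TPM of liver cell types overlapped between the groups, while single lists could lean in a direction. The summed TPM of 6 hepatocyte markers was 46084 to 72871 in the high and 39073 to 73646 in the low strains, and 0 of the 6 were called. For 11 macrophage markers the sums were 203 to 941 and 193.2 to 1021 TPM with 0 called, and for 10 endothelial markers 80.3 to 242 and 117 to 237 TPM with 0 called. Log2 differences lay above 0 for 1 of 6 hepatocyte (median -0.07), 10 of 11 macrophage (0.06) and 7 of 10 endothelial markers (0.08). Of 9 stellate cell markers tested Pdgfrb was lower (-0.55, adjusted p = 0.00333), which is 11.1% called beside 13.7% over all genes tested. Of the 9 differences 1 lay above 0, with a median of -0.22. The sums over all 10 markers were 67.3 to 160 (median 97.5) and 80.7 to 198 TPM (median 117). Of 5 cholangiocyte markers tested Sox9 (-0.87, adjusted p = 0.0163) was lower (20% called), with sums over all 7 markers of 14.985 to 54.7 and 11.3 to 116.2 TPM. Erythroid markers, relevant because red cell precursors make heme with ALAS2, summed to 11.4 to 4816 TPM in the high and 19.02 to 5050 TPM in the low strains, and 0 of the 6 tested were called. Neutrophil (1.79 to 264 and 1.41 to 294 TPM) and lymphocyte sums (8.93 to 39.1 and 9.62 to 46.7 TPM) overlapped as well, with 0 called of 4 and 5 tested. Exocrine pancreas markers were at a median of 0 for 7 of 12, and only Cela1, also made in liver, was tested (-0.64, adjusted p = 0.00631). Pericentral markers gave 1 call of 10 (10%), Lgr5 (-0.55, adjusted p = 0.0332), which was lost without any of 4 strains (SWR/J, BXD15/TyJ, BXA13/PgnJ and BXD13/TyJ), with adjusted p up to 0.0617. Periportal markers gave 2 calls of 10 (20%, beside 13.7% over all genes tested), Pck1 and Sds. Of these 10 differences 5 lay above 0, with a median of -0.04, and Pck1 is also on the fasting list. The part of cell makeup in the other differences was not tested.

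The 73 strains between the groups were not used to choose members, so Alas1 was fitted there as a continuous term. Of 12252 genes 35 were called (0.286%), 13 with a positive (0.106%) and 22 with a negative slope (0.18%) per doubling of Alas1. The calls of the high against low comparison mostly kept their sign: of 1756 with a slope here, 1577 (89.8%) had the same sign, against 68.1% of all 12252 genes. Only 14 genes were called in both, which is 0.779% of the calls of the groups and 40% of those in the 73, and 13 of these had the same direction. Among them Arhgap21 had a slope of 0.21 (SE 0.05, adjusted p = 0.0161), Ipo5, a nuclear import receptor, 0.23 (adjusted p = 0.00674), Tut4 0.29 (adjusted p = 0.0356) and Sox9 -0.76 (SE 0.16, adjusted p = 0.00805). Mdh2 (0.25), Slc25a5 (0.24) and Vdac1 (0.19), named after their values were seen, had positive slopes too. With strain family as a term Ipo5, Tut4 and Sox9 kept their calls (adjusted p = 0.044 for each), while those of Arhgap21 (adjusted p = 0.0682), Mdh2 (0.0576), Slc25a5 (0.0576) and Vdac1 (0.124) were lost. The call of Tut4 was lost without any of 11 strains and that of Vdac1 without any of 21.

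Acute phase genes, which the liver switches on in inflammation, had negative slopes there. Of 17 on the list 0 had a positive and 5 a called negative slope, and the median was -0.68 per doubling of Alas1. Saa2, a serum amyloid A gene, ran from 2.86 to 7702 TPM over the 73 strains, with a slope of -3.54 (SE 0.47, adjusted p = 1.26e-06). Its highest values were 7702 TPM in BXD48/RwwJ, 3703 in NON/ShiLtJ, 1325 in BXD27/TyJ, 1149 in BXD42/TyJ and 1062 in BXD33/TyJ, and Alas1 in these 5 was 204, 208, 304, 275 and 263 TPM, all below the median of the 73. Saa1 had a slope of -2.95 (SE 0.41, adjusted p = 2.42e-06). Leaving out any single strain kept both calls, with slopes of -3.82 to -2.87 for Saa2 and -3.21 to -2.27 for Saa1. Without BXD48/RwwJ the calls of Saa3 (-0.54, adjusted p = 0.129), Orm2 (-1.49, adjusted p = 0.127), Cp (-0.35, adjusted p = 0.128), Steap4 (-0.52, adjusted p = 0.127) and the chemokine Cxcl1 (-0.94, adjusted p = 0.114) were lost. The high and low groups did not show this: Saa2 was at 0.74 (adjusted p = 0.511) and Saa1 at 0.43 (adjusted p = 0.694). Over all ranked strains, with Alas1 as a continuous term, both slopes were negative and called. They were -1.25 for Saa2 (adjusted p = 0.00369) and -0.93 for Saa1 (adjusted p = 0.0117). The slope of the fetal gene Afp, 2.05, was 0.16 without BALB/cJ (adjusted p = 0.824).

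The leading genes of the group comparison did not pass in the 73. Coq10b had a slope of 0.54 (adjusted p = 0.128), Nampt 0.32 (adjusted p = 0.155), Por 0.48 (adjusted p = 0.201), Per2 0.32 (adjusted p = 0.258), Clpx -0.52 (adjusted p = 0.185) and Arntl -0.72 (adjusted p = 0.46). Each slope had the sign of its difference between the groups, over a span of Alas1 of 204 to 570 TPM.

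As a description over all ranked strains, the genes whose log2 CPM followed Alas1 most closely were Nampt (r = 0.75), Morc3 (0.73), Coq10b (0.71), Arhgap21 (0.69) and Usp2 (0.69). The lowest were Ethe1 (r = -0.65), Cldn1 (-0.61), Fam160a1 (-0.60), Zbtb7b (-0.60) and Pid1 (-0.59). Within the 73 between, where the 2 ends are left out, the same r was 0.37 for Nampt, 0.48 for Arhgap21, 0.37 for Usp2 and -0.25 for Ethe1. These values share libraries, strain families and depth, so they carry no test.

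In the C57BL/6J mice of the diet study no difference in Alas1 passed in the comparisons tested, which did not include the cellulose group. It was 241 ± 67.1 TPM on 2% iron (242, 174 and 308), 204 ± 99.7 on 500 ppm (310, 189 and 112.7), 198 ± 47.1 on 50 ppm (159, 250 and 184) and 219 ± 55.8 on chow (268, 229 and 158), each as mean ± SD of 3 mice. The log2 difference was 0.20 for 2% iron against 50 ppm (SE 0.41, adjusted p = 0.792), 0.04 for 500 ppm against 50 ppm (adjusted p = 1), 0.01 for 2% iron against chow (adjusted p = 0.989) and 0.19 for chow against 50 ppm (adjusted p = 0.934). The standard errors were 0.41 on the log2 scale in each of these, and the diets' values overlapped. Alad, for comparison, fell on 2% iron, at -0.52 against 50 ppm (SE 0.11, adjusted p = 0.00590) and -0.70 against chow (SE 0.11, adjusted p = 5.69e-04), where 15.7% (8.52% higher and 7.17% lower) and 22.8% of all genes were called. Urod fell against chow too (-0.34, SE 0.11, adjusted p = 0.0383) and missed the threshold against 50 ppm (-0.34, adjusted p = 0.0502). Uros, Cpox, Ppox and Fech did not pass in either comparison.

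The mice on 2% iron with cellulose spread widely, at 849, 642 and 264 TPM of Alas1 (mean 585 ± 297 SD). The clock genes of the same 3 mice spread with it: Per2 was 6.69, 6.19 and 1.23 TPM, Usp2 was 11.5, 8.00 and 1.596 TPM, and Arntl was 0.937, 0.702 and 5.13 TPM. The mice with 849 and 642 TPM of Alas1 had the highest Per2 and the lowest Arntl of all 15, and they also had the highest Coq10b, at 16.4 and 15.6 TPM. Other diets differed in this. The mouse with the most Alas1 had the highest Arntl of its diet on 500 ppm (10.6 TPM), 50 ppm (9.25 TPM) and chow (8.71 TPM). On 2% iron without cellulose it had the lowest (4.34 TPM). Its Per2 was the lowest on 500 ppm (1.31 TPM) and 50 ppm (1.43 TPM), between the others on chow (2.62 TPM) and the highest on 2% iron (1.65 TPM). No comparison between diets was made for the cellulose group. With diet as a term, the slope on Alas1 over the 15 mice gave 4 called genes of 13559 (0.0295%), 0 with a positive slope in edgeR, and 822 at an unadjusted p under 0.05. The slope was -0.16 for Arntl (adjusted p = 0.977), 0.53 for Per2 (adjusted p = 0.904) and 0.12 for Coq10b (adjusted p = 0.954). Of 1781 calls of the strain comparison with a slope there, 1332 (74.8%) had the same sign, against 60.3% of all genes. The C57BL/6J mouse of the panel had 532 TPM and ranked 30, but the 2 studies are in separately processed tables, so its level is not set against those of the diet study.

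**Figure D5:**
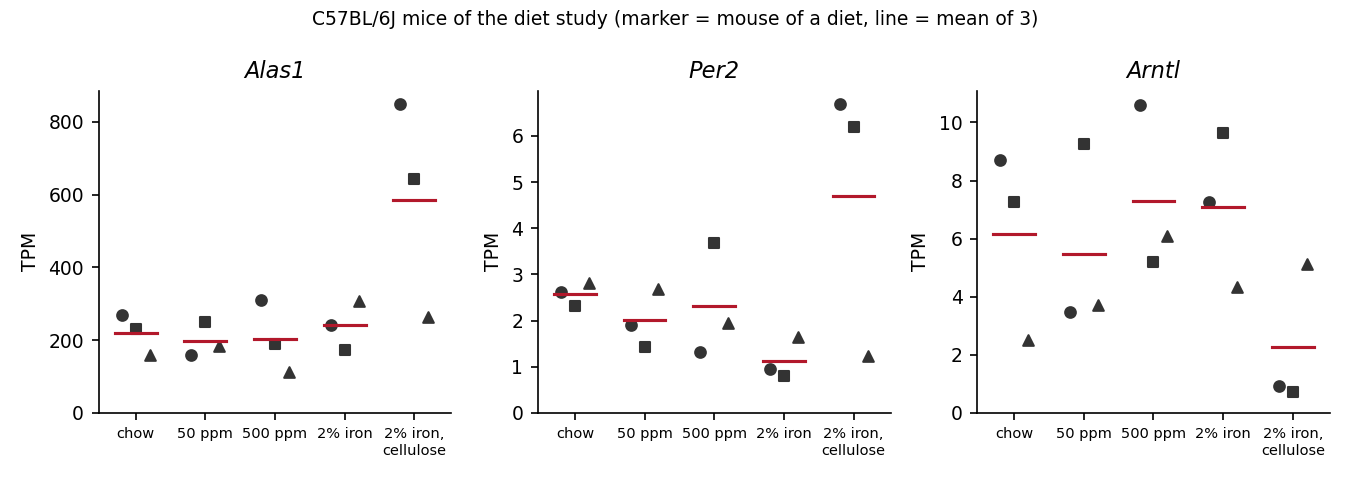
Alas1, Per2 and Arntl in TPM in 15 C57BL/6J mice on 5 diets; each symbol is 1 mouse of a diet and each line the mean of 3. The mice on 2% iron with cellulose that have 849 and 642 TPM of Alas1 are those with 6.69 and 6.19 TPM of Per2 and 0.937 and 0.702 TPM of Arntl. On chow, 50 ppm and 500 ppm the mouse with the most Alas1 has the highest Arntl of its diet, and on 2% iron the lowest.

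In the promoter windows, 14.7% of the genes that were higher in the high strains held the E-box, against 10.2% of the lower genes and 9.98% of 9973 genes tested. The D-box was held by 1.59% of the higher, 0.556% of the lower and 0.551% of all genes tested. AGGTCA was held by 12.6% of the higher, 9.87% of the lower and 12.6% of all genes tested, and the NRF1 element by 2.16%, 1.39% and 2.06%. These shares describe the windows alone and were not tested.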

How the data were processed

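Liver RNA was sequenced from 115 panel mice and 15 diet study mice with a stranded mRNA kit, per the labels' protocols. Kallisto 0.46 and genome build mm10 are named in the submitters' processing notes. The authors deposited expected counts and TPM per gene, separately for the panel and the diet study. How transcripts were summed to genes and which strand setting was used is not given in the sources used here. The design assumed whole counts, and the deposited expected counts were rounded. The members and gene lists were chosen with earlier results of these data known. Of 35711 panel IDs 35612 had a symbol in GENCODE M21, and 411 of 414 list symbols matched.

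High and low strains were compared with edgeR 4.0.16 in R 4.3.3 (TMM, filterByExpr, quasi-likelihood test, Benjamini-Hochberg adjustment over all genes tested, a call at an adjusted p under 0.05). Every adjusted p in the text is from that test unless another tool is named. Alas1 was not tested where it chose the groups. TPM values describe levels, and log2 differences are from the counts. Slopes are per doubling of the TPM of Alas1. Permutation tests drew 100000 resamples. Named genes are the heme synthesis genes of the list, at most 4 called genes per list by p, the 8 largest rises and falls, the 5 smallest p per direction, the 5 highest and lowest correlations and 3 genes near Alas1. Others named, such as those not called, were chosen after their values were seen. Some genes that the rule names are not reported here. Near-identical genes may share reads. The second 129X1/SvJ mouse and BXD65/RwwJ enter only 1 alternative. Alternatives used DESeq2 1.42.0, limma 3.58.1 on log2(TPM + 1) and log2(TPM + 0.1), other filters, other rankings, strain family, clock terms and single libraries left out. The method was tested on simulated data. RefSeq promoters were searched for motifs, with the first entry used where a gene had several.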

Additional observations from a re-analysis of the deposited data

Results flagged for a closer look

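Single samples far from the others of their family were sought for 6 heme synthesis genes in 42 groups of 4 to 10 strains, and 1 was found. Chance flags about 1 in 20 groups. BXH8/TyJ had 115.2 TPM of Alad, far from the other BXH strains, over all strains of that family. This lies between the panel mice of the parent strains, C57BL/6J with 54.1 TPM and C3H/HeJ with 166 TPM. Alas1 was left out of this search, since it chose the groups.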

How the results depend on the processing

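The calls, 879 higher and 919 lower, were 463 and 580 with limma on log2(TPM + 1), 466 and 578 with log2(TPM + 0.1), 101 and 101 in the BXD members, 580 and 487 in the others, 560 and 471 with the 10 highest against the 10 lowest, and 0 and 0 with 2 clock components as terms, an alternative chosen after seeing the data. Leaving out each library gave 793 to 971 higher and 830 to 991 lower genes. Under the other alternatives both counts stayed within 1.5 times. The 35 slope calls were 11 with strain family, 2 in the BXD strains, 67 with limma, 9 with clock components, and 21 to 107 with each strain left out, the fewest without NON/ShiLtJ and the most without BXD100/RwwJ. The cause was not tested, except that parts of the panel hold fewer strains. With clock components these log2 differences changed sign: Uros 0.33, Cpox -0.13, Ppox 0.0085, Fech -0.014, Pgrmc2 0.047, Ppargc1a -0.11, Por -0.0052, Gadd45b -1.07, Cyb5a -0.010, Klf15 -0.014, Mlxipl 0.024, Atoh8 0.18, Sc5d 0.41, Hao2 -0.027 and Tcta 0.0059. Alad, near 0, changed sign with limma (-0.066 and -0.067 with the larger and smaller pseudocount), strain family (-0.099), BXD members (-0.40), 10 against 10 (-0.20), ranking by CPM (-0.056) and a Dbp term (-0.072). So did Fech (-0.020) in the BXD members, Cpox with strain family (-0.0029) and all panel libraries ranked (-0.021), Dnah17 with DESeq2 (-0.089), limma at the smaller pseudocount (-0.034) and BXD members (-0.072), and Mup19 with ranking by CPM (0.62). In the diet study, Alas1 at 500 ppm against 50 ppm was -0.049 with limma, and at 2% iron against chow -0.0022 with DESeq2. Leaving out each mouse gave -0.047 to 0.40 for 2% iron against 50 ppm, -0.35 to 0.33 for 500 ppm against 50 ppm, -0.23 to 0.22 for 2% iron against chow and 0.07 to 0.38 for chow against 50 ppm, all without a call. Of the 95 named genes limma lost 16 and 13 calls with the larger and smaller pseudocount, 10 against 10 lost 26, a Dbp term 10, ranking by CPM 6, strain family 4 (Cyb5a, Serpina1e, Dnah17 and Hao2) and DESeq2 1 (Mup17). These counts leave out genes that changed sign. Dnah17 also lost its call with DESeq2 (adjusted p = 0.849) and with limma at the smaller pseudocount (adjusted p = 0.973). Mup19 lost its call with ranking by CPM (adjusted p = 0.752). With RLE factors all 95 kept their direction and side of the threshold. No paired analysis was possible because the panel has 1 mouse per strain and the labels carry no replicate numbers that pair samples. Genes such as Npas2, under the count filter, were not tested.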
